A study of Mus musculus with 6 samples.

Results

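The genes described are those that place and keep methyl groups on cytosine in mouse DNA: Dnmt1, Dnmt3a, Dnmt3b and Uhrf1. They were chosen by symbol, as all probe sets of the array (sets of short probes for one transcript) whose platform annotation names 1 of the 4 genes and no other. Such probe sets existed for 3 of the 4 genes, 5 probe sets among 12422 tested: 2 for Dnmt1, 2 for Dnmt3a and 1 for Uhrf1. No probe set carried the symbol Dnmt3b, so that gene was not analysed here. Transcript levels were compared between wild type and HDAC1 knock out mouse embryonic stem cells, pluripotent cells taken from early embryos, with 3 arrays of each genotype, no treatment and 1 array per sample. HDAC1 is a histone deacetylase found in several corepressor complexes. Cells of both genotypes came from embryos of 1 litter, and the knockout cells came from embryos without HDAC1, so the gene was missing throughout their derivation. The labels do not say how many cell lines were used or whether a sample grew on gelatin with LIF or on feeder cells without it, and they call the samples biological replicates without saying what separates them. Each p-value below therefore weighs a difference against the spread of these samples alone, and part of that spread may be technical.

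Methylation of CpG dinucleotides is set by DNMT3A and DNMT3B, the de novo enzymes, which can act on unmethylated DNA. After replication it is copied to the new strand by DNMT1, the maintenance enzyme, which is guided there by UHRF1, a protein that binds hemimethylated DNA and modified histone H3 tails. In embryonic stem cells both activities are present, the de novo enzymes are highly expressed compared with most adult tissues, and several imprinted and germline genes rely on the methylation they leave.

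Dnmt3a lies on chromosome 12 (GRCm38.p6, 3801559 to 3914443), Dnmt1 on chromosome 9 (20907206 to 20959888) and Uhrf1 on chromosome 17 (56303337 to 56323486). Dnmt3a was the member whose level passed the test, so windows before its start sites are shown. The sources used here list 3 start sites, the first and last 84764 bases apart on the plus strand. The first listed, at 3806980, lies inside the gene's span, so it need not be the gene's first start. The 250 bases before the first and the last listed site are shown 5′ to 3′ with each CpG in capitals.
Dnmt3a, first start, chr12:3806730-3806979: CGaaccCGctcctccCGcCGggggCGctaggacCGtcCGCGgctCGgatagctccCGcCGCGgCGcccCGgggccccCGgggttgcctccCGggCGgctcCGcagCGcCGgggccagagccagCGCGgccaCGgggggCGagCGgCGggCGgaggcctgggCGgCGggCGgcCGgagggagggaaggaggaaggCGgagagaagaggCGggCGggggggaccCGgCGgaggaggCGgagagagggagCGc
Dnmt3a, last start, chr12:3891494-3891743: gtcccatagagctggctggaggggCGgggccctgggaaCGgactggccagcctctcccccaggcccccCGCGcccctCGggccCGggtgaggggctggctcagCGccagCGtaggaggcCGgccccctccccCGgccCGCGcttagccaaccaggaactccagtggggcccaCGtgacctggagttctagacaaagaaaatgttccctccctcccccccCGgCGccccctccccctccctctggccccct
The first window holds 38 CpGs and the last 15, against a median of 6 over the 32817 windows of the same length in the RefSeq table. The GC box, GGGCGG on either strand, occurs 5 times in the first and 1 time in the last, and 32.7% of all windows hold it at least once. The CCAAT box, searched as CCAAT on either strand, occurs in neither, while 33.8% of all windows hold it. The sources used here do not say which Dnmt3a transcript the array's probes detect, and no methylation was measured.

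The arrays can be set against a few checks. Hdac1 was 2323.4, 2199.7 and 2407.8 in the 3 wild-type arrays and 118.3, 110.1 and 197.1 in the 3 knockout arrays, as linear signal, so the labels hold for the targeted gene. A background level of 116.4 was taken from the array's bacterial and yeast control probe sets. All 10 pluripotency markers were above it in both genotypes, and Pou5f1 (Oct4) had 10009.8 ± 1115 (SD, n = 3) in wild-type and 10682.3 ± 380.7 in knockout cells. Across 7548 probe sets above background, log2 signals of arrays of the same genotype correlated at 0.939 to 0.958, and those of opposite genotypes at 0.920 to 0.934.

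Dnmt3a fell in the knockout cells. Its brighter probe set, 100479_at, had a signal of 1175.3, 1707.0 and 1332.0 in wild-type replicates 1 to 3 and of 585.0, 646.3 and 676.0 in knockout replicates 1 to 3. All 3 knockout values lay below all 3 wild-type values, and the lowest wild-type array was 1.74 times the highest knockout array. The means were 1404.8 ± 273.2 and 635.8 ± 46.4 (SD, n = 3), a log2 difference of -1.11 ± 0.14 (SE) on the log2(signal + 16) scale, or 2.16-fold lower (limma adjusted p = 0.00141). The 95% interval of the ratio of knockout to wild type ran from 0.373 to 0.576. By p it ranked 107 of the 12422 probe sets, and 55 probe sets, itself included, were called lower by at least as much. The wild-type arrays were more spread (coefficient of variation 19.4%) than the knockout arrays (7.3%), with wild-type replicate 2 the highest. Without that array the log2 difference was -0.96, and with each of the 6 arrays left out in turn it stayed between -1.23 and -0.96 with adjusted p of at most 0.0104. The call depended on the variance model: with limma's variance estimated without its trend on signal, the adjusted p was 0.0666.

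The second Dnmt3a probe set, 161170_r_at, stayed at background. Its signals of 20.1, 7.9 and 5.6 in wild-type and 3.6, 65.0 and 2.4 in knockout arrays were all under background, and no fold is given. The suffix r in its name marks a probe set for which Affymetrix relaxed its selection rules.

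Dnmt1, the maintenance methyltransferase, differed little. Probe set 101445_at had a signal of 2935.4, 3009.1 and 3164.8 in wild-type and of 2789.6, 2847.4 and 2827.5 in knockout arrays. The groups did not overlap, but their edges were only 1.03-fold apart, and the means of 3036.4 ± 117.1 and 2821.5 ± 29.4 (SD, n = 3) had a ratio, knockout over wild type, of 0.929. No change was called, at a log2 difference of -0.10 ± 0.07 (SE) and a limma adjusted p of 0.582. The 95% interval of the ratio, 0.83 to 1.04, leaves out a fall as deep as that of Dnmt3a. After centring each array on its median the log2 difference was -0.03. A second Dnmt1 probe set, 161601_i_at, whose suffix i marks a set with fewer probes than usual, was near background, at 122.2, 76.4 and 154.8 in wild-type and 70.6, 159.3 and 25.1 in knockout arrays. Its groups overlapped (adjusted p = 0.705 by limma), and only 3 of the 6 arrays were above background.

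Uhrf1, the guide of DNMT1 to newly replicated DNA, was higher in each knockout array than in any wild-type array but was not called. Probe set 99564_at had a signal of 2259.2, 2598.2 and 2777.5 in wild-type and of 3291.0, 3051.8 and 2939.7 in knockout arrays. The means were 2545.0 ± 263.2 and 3094.2 ± 179.4 (SD, n = 3), a log2 difference of 0.28 ± 0.09 (SE), 1.22-fold, with an unadjusted p of 0.0129 and an adjusted p of 0.165 by limma. The 95% interval of the ratio ran from 1.05 to 1.41 before adjustment for the number of probe sets tested. With each array left out in turn the log2 difference was 0.20 to 0.35.

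**Figure D1:**
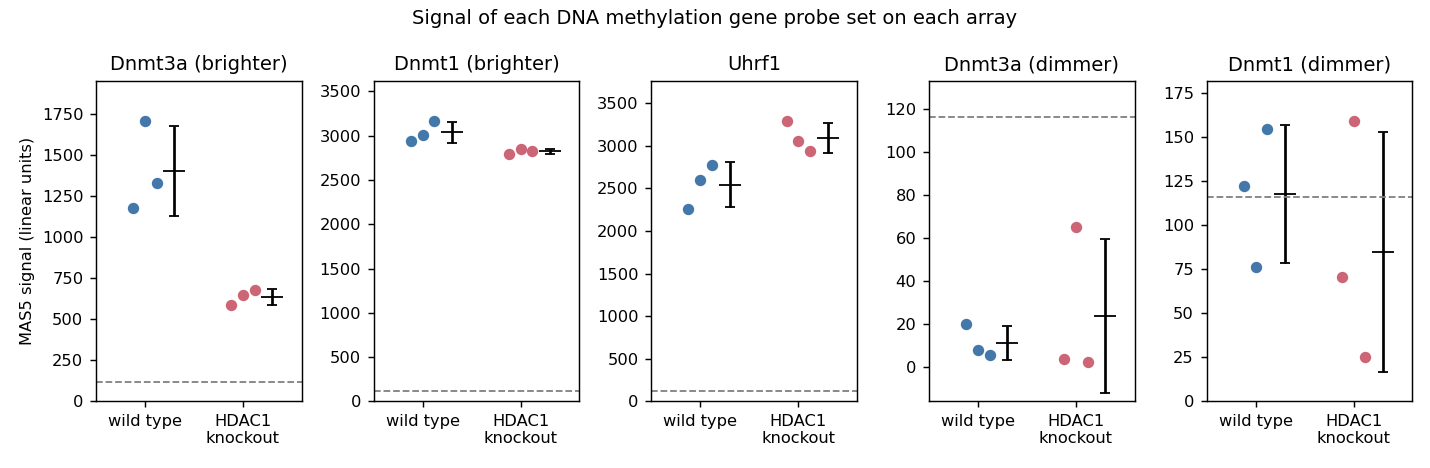
MAS5 signal (linear units) of the 5 probe sets on each of the 6 arrays, with wild type in blue, HDAC1 knockout in red, black bars for the mean ± SD of 3 arrays and a dashed line for the background level of 116.4. The vertical scale differs between panels; Dnmt3a (brighter) separates by 1.74-fold between the nearest arrays, Dnmt1 (brighter) by 1.03-fold, and the dimmer probe sets lie at or around background.

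Of the 5 probe sets, 1 was called (lower), where 3.88% of all tested probe sets were called and 1.63% were called lower. Wild-type and knockout arrays were fully separate for 3 of the 5, which held for 20.6% of all probe sets. The members' log2 differences thus ran from -1.11 for Dnmt3a through -0.10 for Dnmt1 to 0.28 for Uhrf1, beside a median of -0.04 over the 8251 genes measured.

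**Figure D2:**
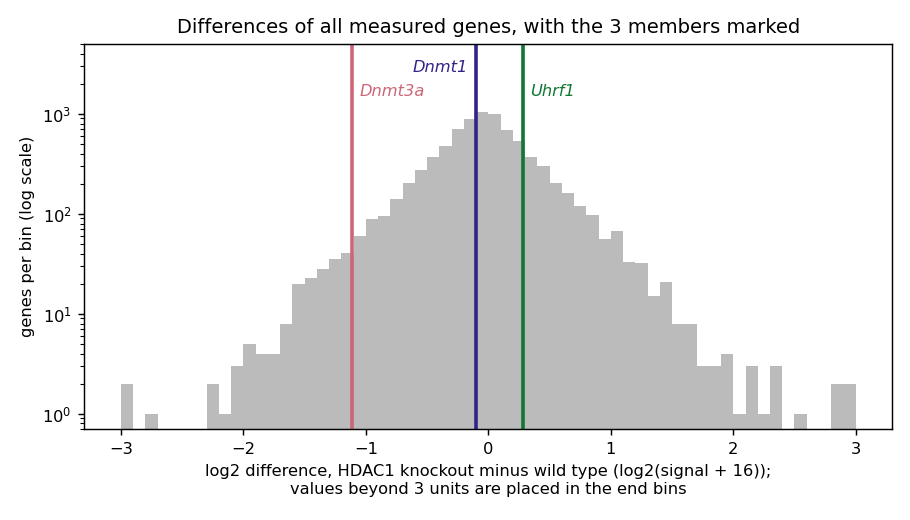
Histogram (log-scaled counts) of the log2 difference, knockout minus wild type, of all 8251 genes, each by its brightest probe set, with lines at the 3 measured members. Dnmt3a at -1.11 lies in the lower tail, and Dnmt1 at -0.10 and Uhrf1 at 0.28 lie within the bulk.

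The members' signals relative to each other differed between the genotypes on these arrays, but the number of arrays limits the test. Within each array, the log2 signal of Dnmt1 minus that of Dnmt3a averaged 1.12 ± 0.27 in wild-type and 2.13 ± 0.09 in knockout cells (SD, n = 3), a shift of 1.005. Dnmt3a minus Uhrf1 went from -0.86 ± 0.23 to -2.25 ± 0.19, and Dnmt1 minus Uhrf1 from 0.26 ± 0.10 to -0.13 ± 0.09. Different probe sets do not share a scale, so these values do not show which gene had the higher level. They describe these 6 arrays and do not establish that the members changed unequally. For each of these 3 pairs, the knockout and wild-type arrays did not overlap, which gives p = 0.1 by an exact two-sided permutation test, also after adjustment over the 3 pairs. That is the smallest p that 3 arrays against 3 allow, so the differences between members could not pass 0.05 by this test. For the pairs with Uhrf1 the lack of overlap was also fixed beforehand. Uhrf1 was higher, and the other member lower, in every knockout array than in any wild-type array. How often other pairs of genes separate is not given here.

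Over the 6 arrays, the genes most like Dnmt3a among 5683 other genes above background were Atpif1, Anxa1 and Phlda3, with Pearson r of log2 signals of 0.996, 0.990 and 0.990. Their log2 differences were -0.31, -0.82 and -0.28, and by limma the first 2 were called (adjusted p = 0.0472 and 0.0028) and Phlda3 was not (0.17). Those most like Dnmt1 were Marveld1, Slc35b2 and Arpp19 (r = 0.992, 0.991 and 0.986), with log2 differences of -0.69, -0.35 and -0.45. Those most like Uhrf1 were Coro1c, Elovl5 and Aars (r = 0.984, 0.983 and 0.982), with log2 differences of 0.72, 0.38 and 0.13. These correlations rest on 6 arrays that share 2 genotypes, so any gene that separates the genotypes scores high, and they are given as a description.

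None of the other genes of the methylation machinery was called. Of 21 listed, 14 were measured, 0 were higher and 0 lower by limma, with 2 at an unadjusted p under 0.05 and a median log2 difference of 0.03. Of all 8251 genes, 4.58% were called and 1411 had an unadjusted limma p under 0.05. With only 14 genes, 0 calls are near the called share. The smallest p belonged to Suv39h2, a histone H3 lysine 9 methyltransferase, whose signals of 117.8, 77.6 and 163.4 in wild-type and 75.1, 21.3 and 9.3 in knockout arrays lay near or under background. Next came Dppa3 (Stella), which protects DNA methylation in the early embryo and restrains UHRF1 in oocytes, with 335.6, 362.3 and 312.4 in wild-type and 432.7, 482.4 and 476.2 in knockout arrays (log2 difference 0.44 ± 0.16, adjusted p = 0.21). Zfp57, a zinc finger protein that keeps methylation at imprinted regions, had 515.9 ± 17.9 and 628.2 ± 63.5 (log2 difference 0.27, adjusted p = 0.379). Wild-type and knockout arrays were fully separate for 5 of the 14, which held for 22.4% of all genes. Hells, a chromatin remodeller needed for normal DNA methylation, had a log2 difference of 0.09 ± 0.11, and Pcna, the replication clamp that binds DNMT1, one of 0.02 ± 0.07. The cofactor Dnmt3l was not measured by a probe set of its own.

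Genes listed as methyl-CpG binding proteins or their relatives were not called either. Of 8 listed, 4 were measured, with 0 called by limma and 0 at an unadjusted p under 0.05. Over all genes 4.58% were called, and 1411 of 8251 had an unadjusted limma p under 0.05. With only 4 genes, 0 calls are near that share. Mbd3, a subunit of the NuRD complex in which HDAC1 also acts, had 2221.9 ± 268.3 in wild-type and 1987.6 ± 283.3 in knockout cells, with overlapping arrays. Mbd1 and Mbd2 had log2 differences of -0.52 and -0.31 at signals close to background, with an SE of 0.42 and 0.39. Their 95% intervals, -1.45 to 0.41 and -1.18 to 0.55, leave a 2-fold fall undecided.

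Among genes of demethylation and base excision, Ung rose. Ung encodes uracil-DNA glycosylase, which starts the repair of uracil in DNA. Its brighter probe set had 2191.2, 2003.6 and 2107.4 in wild-type and 3071.2, 3062.8 and 2917.5 in knockout arrays, without overlap. It was 1.43-fold higher in knockout cells (log2 difference 0.52 ± 0.08, limma adjusted p = 0.00384, or 0.168 without the variance trend), while a second, r-marked Ung probe set had 988.1 ± 127.3 and 1023.8 ± 150.8 and was not called (adjusted p = 0.933). Ung was 1 of 9 measured genes of 14 listed, and the other 8 had no call, where 4.58% of all genes were called. Gadd45g, a stress-induced member of a family linked to demethylation, had mean signals of 427.8 ± 111.8 and 222.6 ± 30.3 and was not called (-0.87 ± 0.25 on the log2 scale, adjusted p = 0.0939). Apex1, the abasic-site endonuclease, had a log2 difference of -0.24 ± 0.08 (adjusted p = 0.175). The arrays did not overlap for 6 of the 9, 5 of them lower, where 22.4% of all genes did not overlap, 995 of the 8251 lower. The median log2 difference of the 9 genes was -0.24. Tet1, which oxidises methylcytosine, was near background, at 148.2, 229.1 and 125.4 in wild-type and 168.6, 427.6 and 148.2 in knockout arrays, with a log2 difference of 0.41 ± 0.41.

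The supply of S-adenosylmethionine, the methyl donor, showed no called gene. Of 16 listed genes 9 were measured, 6 of them above background in at least 1 genotype, with 3 at an unadjusted p under 0.05 and 0 called by limma. Over all genes 1411 of 8251 had an unadjusted limma p under 0.05 and 4.58% were called, so 0 calls among 9 genes are near that share. Ahcy, which removes the inhibitory product S-adenosylhomocysteine, had mean signals of 6442.4 ± 366.5 and 7828.6 ± 593.2, and its log2 difference of 0.28 ± 0.08 was not called (adjusted p = 0.119). Its other probe sets had log2 differences of 0.20 and 0.47, also without a call (adjusted p = 0.177 and 0.34). Shmt1, the cytosolic serine hydroxymethyltransferase of one-carbon metabolism, had a log2 difference of -0.30 ± 0.10 (adjusted p = 0.148), and its dimmer probe set fell at least 1.495-fold to background (adjusted p = 0.0189). Mat2b, the regulatory subunit of methionine adenosyltransferase, had a log2 difference of -0.22 ± 0.09 (adjusted p = 0.26). The catalytic subunit gene Mat2a was not measured by a probe set of its own.

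**Figure D3:**
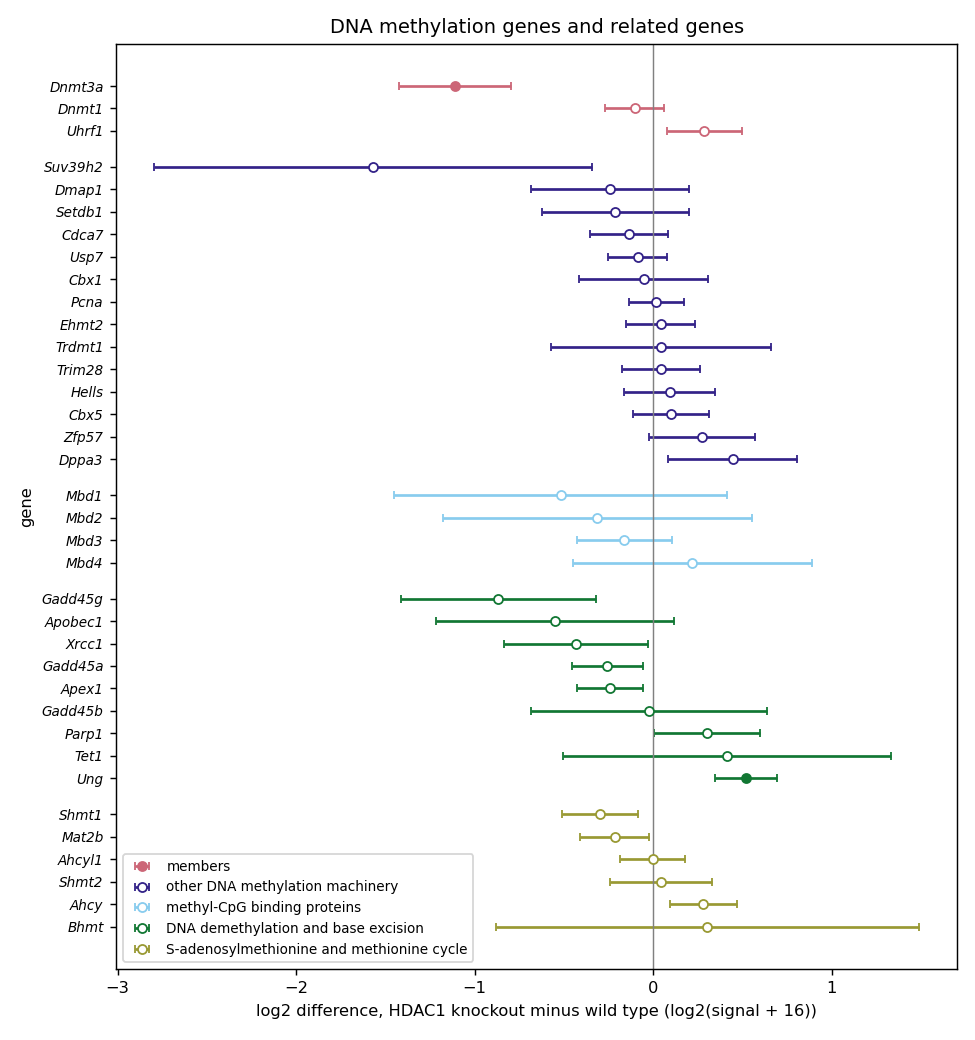
Log2 difference, knockout minus wild type, with 95% intervals from limma, for the measured members and for the genes of methylation machinery, methyl-CpG binding, demethylation and base excision, and the methionine cycle that were above background in at least 1 genotype. Filled points were called at an adjusted p under 0.05; these are Dnmt3a (-1.11) and Ung (0.52).

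Because DNMT1 and UHRF1 act at replication forks and their genes are known to be active in S phase, S phase genes were set beside them. Of 20 measured genes of 22 listed, 4 rose and 0 fell, with a median log2 difference of 0.10, where 2.70% of all genes were called higher. The X-linked gene Pola1, for the catalytic subunit of DNA polymerase alpha, was 1.74-fold higher (limma adjusted p = 0.00531), and Rrm2, for a subunit of ribonucleotide reductase, 1.65-fold higher (adjusted p = 0.00625). Without the variance trend neither was called (limma adjusted p = 0.105 and 0.163). The replication helicase genes Mcm4 and Mcm5 rose 1.27-fold and 1.28-fold, but Mcm4 was not called in any fit on 5 arrays and Mcm5 in only 1 of the 6 such fits (adjusted p up to 0.111 and 0.154), and without the trend neither was (0.338 and 0.351). The arrays did not overlap for 10 of the 20, 9 of them higher, where 22.4% of all genes did not overlap, 853 of the 8251 higher. Lig1, the replicative DNA ligase, had a log2 difference of 0.41 ± 0.10 (adjusted p = 0.0553), and Rrm1, the partner subunit of Rrm2, one of -0.38 ± 0.13 (adjusted p = 0.165), both without overlap and without a call. Pcna, the sliding clamp at the fork, had a log2 difference of 0.02 and overlapping arrays.

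Genes that are known to be silenced by DNA methylation at their promoters were also looked up. Of 19 listed 8 were measured, and 3 rose, where 2.70% of all genes were called higher: Rhox5, a homeobox gene of the X chromosome, from 1166.0 ± 178.9 to 4671.2 ± 315.4 (log2 difference 1.997 ± 0.114), Stag3, a meiotic cohesin subunit, from background by at least 2.42-fold, and the X-linked Xlr4a from background by at least 1.73-fold. These 3 were already known to rise in these samples when the list was drawn up, so their count is no independent evidence. Dazl, a germ cell RNA-binding protein, had 186.9, 178.4 and 112.0 in wild-type and 295.7, 296.1 and 316.5 in knockout arrays, without overlap and without a call (adjusted p = 0.126). A dimmer Dazl probe set, near background, had 108.2 ± 27.7 in wild-type and 142 ± 38.5 in knockout cells, with overlapping arrays (limma adjusted p = 0.758). Ddx4, another germ cell gene, had overlapping arrays, and Sycp1, Sycp3 and Elf5 were at background in both genotypes. Xlr4a belongs to a family of near-identical copies, which its probes may not tell apart.

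Other measures moved with the genotype beside the fall of Dnmt3a. Several feeder fibroblast markers were lower. Of 21 measured of 22 listed, 6 fell, 0 rose and 15 were not called, where 1.88% of all genes were called lower. The median log2 difference of the 21 was -0.41. Their summed signal was 16559 to 17370 in wild-type and 12130 to 12287 in knockout arrays. The log2 differences of those that fell were -2.05 for Tagln, -1.31 for Acta2, -1.08 for Col1a1, -0.90 for Timp3, -0.63 for S100a4 and -0.48 for Fbln2, beside -1.11 for Dnmt3a. The arrays did not overlap for 9 of the 21, all 9 lower, where 22.4% of all genes did not overlap. Lum, Postn, Pdgfrb and Loxl1 were at background in both genotypes, and Col1a2, Fn1 and Col5a1 had log2 differences of 0.04, 0.05 and -0.01. In bulk RNA, fewer cells of a type and less RNA per cell cannot be told apart, and the part of the fibroblast markers in the fall of Dnmt3a was not tested.

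The sex chromosomes also differed. The Y-linked gene Eif2s3y had 362.0, 418.4 and 357.6 in wild-type and 14.1, 24.3 and 59.7, all at background, in knockout arrays. X-linked genes had a median log2 difference of 0.23 (259 genes) and autosomal genes one of -0.04 (7971 genes). In every sample the genotype goes with 1 state of these chromosome markers, so their parts in the levels of Dnmt3a and of the other members cannot be told apart. All 3 measured members are autosomal.

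The pluripotency markers Nanog, Zfp42, Klf4, Fgf4 and Sox2 rose in the same arrays, 5 of 10, where 2.70% of all genes were called higher, from 1.40-fold for Sox2 to 2.23-fold for Zfp42. The ratio of the 3′ to the 5′ beta-actin probe set, a sign of RNA integrity, was 1.152 to 1.210 in wild-type and 1.043 to 1.092 in knockout arrays (exact two-sided permutation p = 0.1), and that of Gapdh was 0.797 to 0.809 and 0.769 to 0.804. The part of these measures in the levels of the members was not tested.

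**Figure D4:**
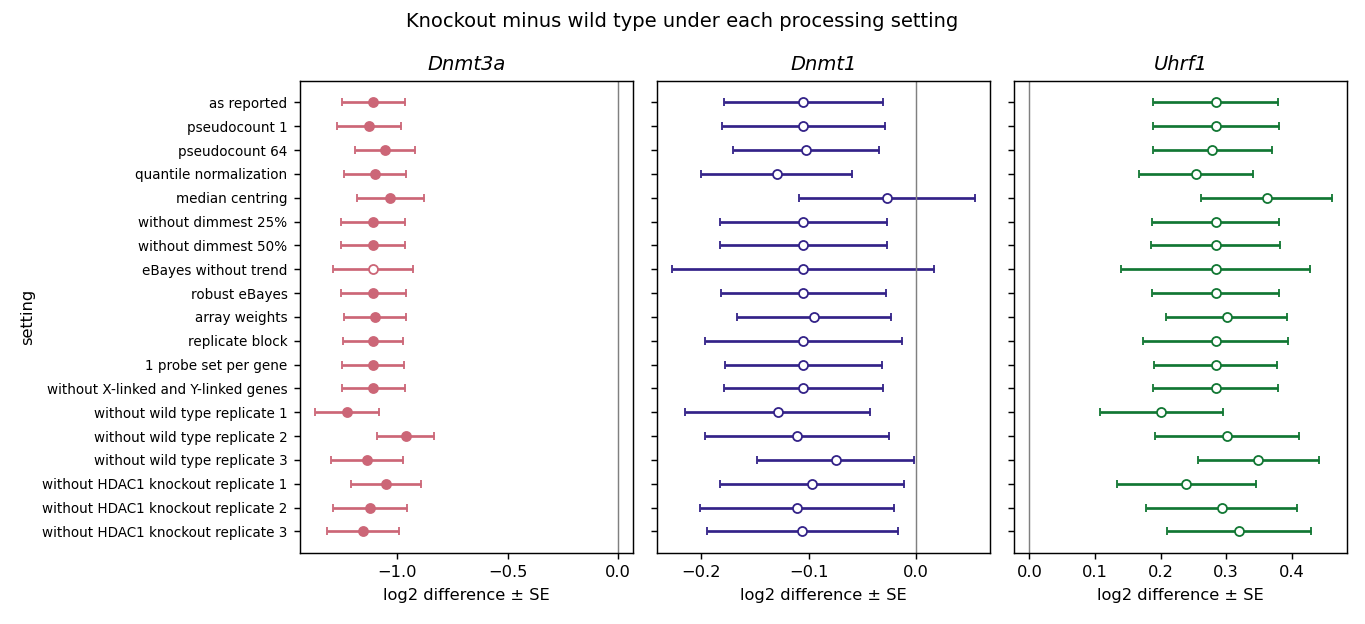
Log2 difference, knockout minus wild type, ± SE for the brightest probe set of Dnmt3a, Dnmt1 and Uhrf1 under each processing setting, with filled points where the adjusted p was under 0.05 and a horizontal scale that differs between panels. Dnmt3a was called in 17 of the 18 other settings, and Dnmt1 and Uhrf1 in none of the 18.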

How the data were processed

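Each sample's biotin-labelled RNA was read on its own 1-colour array (Affymetrix MG U74Av2). The authors deposited MAS5 signal intensity on a linear scale, per the submitters' processing notes; the sources used here give no version, settings or detection calls. The 2% trimmed mean was 500.3 on all 6 arrays, so the values had been scaled and a change of all transcripts together cannot be seen. Of 12488 probe sets, 66 controls were left out. Symbols are those of the platform annotation, brought up to date with RefSeq (GRCm38.p6) by gene ID. Of the tested probe sets 10833 had 1 symbol (10817 matched to RefSeq), 396 had several and 1193 had none. The brightest probe set by mean signal stood for its gene.

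Differences are HDAC1 knockout minus wild type of log2(signal + 16), which understates changes of dim probe sets, fitted over all 6 arrays without covariates by limma 3.58.1 under R 4.3.3, using lmFit and eBayes with its trend option. Adjusted p-values are limma's, by Benjamini-Hochberg over 12422 probe sets, with a threshold of 0.05. Background is the 95th percentile of the signals of 19 control probe sets. Where a group's mean or all its arrays were at or under it, its dim arrays were set to that level and the fold is given as at least the value reached. The number of arrays limits the precision.

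The members and gene lists were chosen with earlier results of these data known. By rule, the text names every member probe set, Hdac1, up to 6 called genes of each list (the 3 with the smallest p where fewer than 3 were called), Dnmt3l, Tet1, Hells, Pcna, Mat2a, Ahcy and Rhox5, and the 3 genes of highest Pearson correlation with each member. Other genes were chosen after their values were seen. Alternatives covered the pseudocount, scaling, dim-probe filters, variance models, array weights, a replicate block, each array left out, 1 probe set per gene and, added after the data were seen, leaving out X-linked and Y-linked genes. Only the limma fit was tested on simulated data. Their noise was drawn from its own variance trend and the changes were placed in bright probe sets, so the test does not weigh the choice of variance model.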

Additional observations from a re-analysis of the deposited data

How the results depend on the processing

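Dnmt3a was lower in all 18 other settings (log2 difference -1.23 to -0.96) and was called in 17. Without a variance trend its value of -1.109 had a limma adjusted p of 0.0666. Dnmt1 (-0.13 to -0.03, adjusted p 0.439 to 0.931) and Uhrf1 (0.20 to 0.36, adjusted p 0.084 to 0.48) kept their signs and were called in none. Dim-probe filters, variance models, the replicate block, 1 probe set per gene and dropping sex-chromosome genes cannot move these log2 differences. Those settings left all 3 members at their main values and bear only on the p-values. The same sign there is no further evidence. Only the pseudocount, scaling, array weights and arrays left out could change it. The background Dnmt3a probe set turned from 0.216 to -0.088 with a pseudocount of 1 and ran from -0.481 to 0.588 with single arrays left out, turning without HDAC1 knockout replicate 2; the cause was not tested. Of the 63 other genes of the 6 lists, 8 were called, against 3 without a trend, 5 without X-linked and Y-linked genes (3 of the 8 are X-linked and left that fit) and 6 to 8 with single arrays left out. Calls over the whole array were 279 higher and 203 lower, against 82 and 50 without a trend, and 150 to 246 and 98 to 174 with single arrays left out. Median centring gave 344 higher and 129 lower, and the replicate block 200 and 119; the cause was not tested. Samples sharing a replicate number did not deviate together (correlations -0.083 to -0.012). The labels do not say whether the numbers pair samples, and a check on so few arrays cannot settle it. Under the replicate block Dnmt3a had a limma adjusted p of 0.00239, Dnmt1 0.707 and Uhrf1 0.291. The differences between members were recomputed only with pseudocounts of 1 and 64 and with single arrays left out, and they shifted the same way each time. Signals near background limit what can be said of the second probe sets, Tet1, Mbd1 and Mbd2.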
